A study of Mus musculus with 6 samples.

Results

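Genes that supply peptides to MHC class I molecules and load them were followed in RVP3 cells, a murine tumour line of C57BL/6 background grown in vitro, which the study describes as MHC class I-deficient and unresponsive to IFNγ. The 10 genes were chosen by name, as the transactivator Nlrc5, the transporter gene Tap2, the loading genes Tapbp, Tapbpl, Calr, Canx and Pdia3, and the proteasome genes Psmb10, Psme1 and Psme2. Every probe annotated to them among the deposited log2 values was taken. This gave 12 probes for 9 of the 10 genes, among 8734 genes measured in all. No probe with such values was annotated to Canx, the membrane chaperone calnexin, and it was not analysed here. Total RNA of 3 DAC/TSA cultures and 3 control cultures was hybridised to Illumina Mouse WG-6 bead arrays, which read each transcript by 1 or more bead probes. DAC/TSA cells received 3 µM DAC (5-aza-2′-deoxycytidine, an inhibitor of DNA methyltransferases) for 48 h, with the inhibitor renewed after 24 h, and then 30 ng/ml TSA (trichostatin A, an inhibitor of histone deacetylases) for 24 h. Control cells were untreated per the labels, and no vehicle is named. All 6 samples came from a single line, so that p-values measure the spread between cultures, and DAC and TSA were always given in sequence, so that their shares in a change cannot be told apart.

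MHC class I molecules display peptides that the proteasome cuts from cytosolic proteins. The transporter TAP carries these peptides into the endoplasmic reticulum, where the peptide-loading complex, built from tapasin (Tapbp), calreticulin (Calr) and ERp57 (Pdia3), holds an empty class I molecule next to the transporter. IFNγ replaces the catalytic proteasome subunits by immunoproteasome subunits such as Psmb10, and NLRC5 activates class I genes together with factors that bind their promoters. In tumours that lack surface class I, loss of expression of these genes is a common and often reversible state.

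The arrays detected between 14101 and 15056 probes in DAC/TSA cells and between 13227 and 14261 in control cells, detection meaning a p-value of 0.01 or less against the negative controls of the array. Log2 signals of arrays of the same group correlated at 0.992 or more, and those of arrays of different groups at 0.950 or less. A change is the DAC/TSA mean minus the control mean on the log2 scale, with its standard error (SE), and a gene was called when its Benjamini-Hochberg adjusted p in limma was under 0.01. Much of the transcriptome moved by this rule, as 27.0% of the 8734 genes were called higher and 25.8% lower, or 52.8% in either direction. Of these calls 51.1% were upward, against 62.1% of the calls when arrays were scaled to a common median in place of quantiles (1335 genes higher and 815 lower). In 69.2% of all genes the DAC/TSA arrays lay wholly above or wholly below the control arrays.

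Against this background, DAC/TSA did not move the peptide supply and loading genes in 1 direction. The 9 measured genes gave 3 higher calls (Nlrc5, Tap2 and Tapbp), 2 lower calls (Tapbpl and Psmb10) and 4 without a call (Psme1, Psme2, Calr and Pdia3). That is 5 of 9 called, beside the 52.8% of all genes. Their median change was 0.26 on the log2 scale, and that of all 8734 genes was -0.02. The groups did not overlap in 7 of the 9 genes, with DAC/TSA above in 4 and below in 3, beside the 69.2% of all genes. With the replicate number as a block, 5 of the 9 were called higher and 3 lower, beside 32.5% and 32.8% of all genes. At an adjusted p of 0.05 without the block, 5 were called higher and 3 lower, beside 32.4% and 32.6%, and with median scaling 2 were called higher and 2 lower, beside 15.3% and 9.33%. All 12 probes came from the deposited log2 values, which cover only probes detected on at least 2 of 3 arrays of a group. The looser filter on dim probes used here could therefore remove none of them. Nlrc5, detected on 1 of 3 control arrays, met the deposited rule only through DAC/TSA cells, the group in which it was higher. Tapbpl and Psmb10 lay near the bottom of the distribution, where only 1.21% and 1.67% of genes had a smaller change, and Nlrc5 and Tap2 near the top, where 94.4% and 92.4% had a smaller one.

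**Figure D1:**
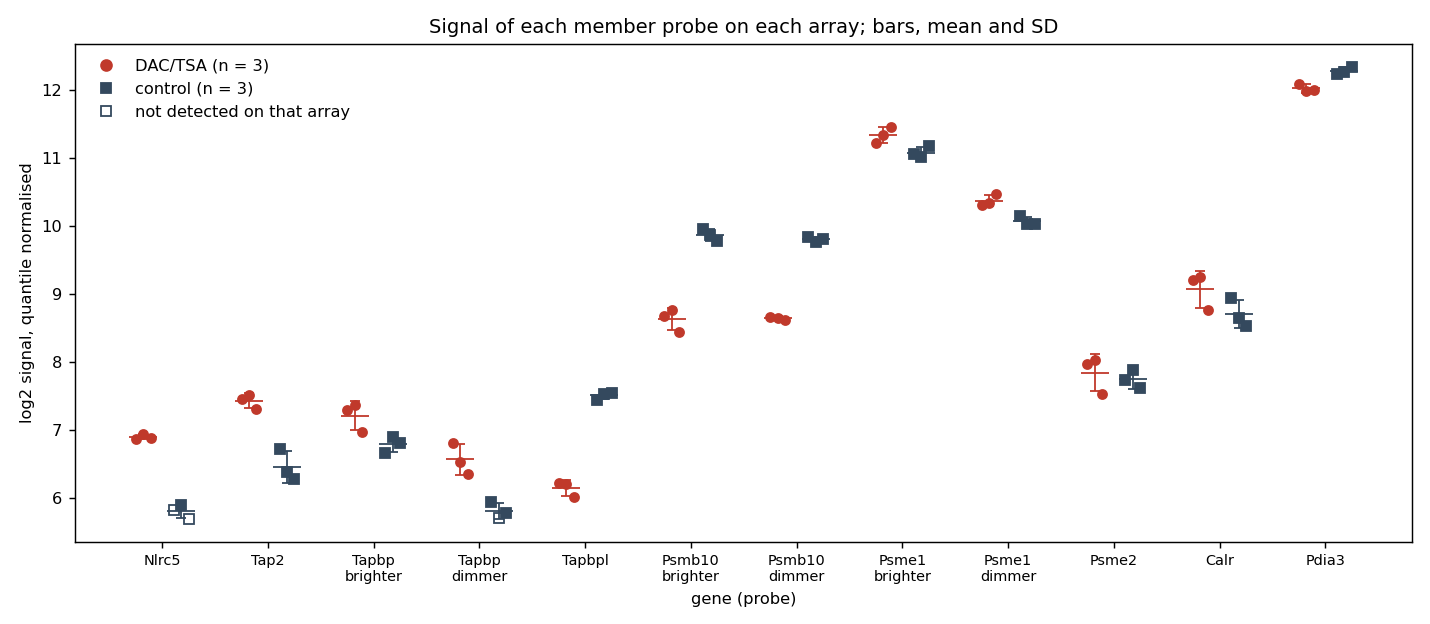
Quantile-normalised log2 signal (y axis) of each of the 12 probes (x axis) on the 3 DAC/TSA arrays (red circles) and the 3 control arrays (dark squares), with mean and SD as bars and open symbols for arrays on which the probe was not detected. The DAC/TSA arrays lie above control for Nlrc5, Tap2, Tapbp and Psme1, below it for Tapbpl, Psmb10 and Pdia3, and among it for Psme2 and Calr.

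DAC blocks the enzymes that methylate cytosines in CpG dinucleotides, so the stretch around the start of 3 genes is shown, with each CpG in capitals, for a gene called higher (Tapbp), a gene called lower (Psmb10) and a gene without a call (Psme1). The sequences are those of RefSeq on GRCm38.p6, each a window of 300 bases, most of it before the annotated start, read 5′ to 3′ on the strand of the gene. Tapbp lies at chr17:33919228-33919527 on the plus strand, Psmb10 at chr8:105938343-105938642 on the minus strand and Psme1 at chr14:55578244-55578543 on the plus strand.
Tapbp: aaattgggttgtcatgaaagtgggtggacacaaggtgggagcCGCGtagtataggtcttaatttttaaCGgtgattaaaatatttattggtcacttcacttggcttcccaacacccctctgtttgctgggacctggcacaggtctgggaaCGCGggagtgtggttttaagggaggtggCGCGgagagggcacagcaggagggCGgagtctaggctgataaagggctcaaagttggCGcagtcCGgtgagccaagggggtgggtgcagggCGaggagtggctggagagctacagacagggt
Psmb10: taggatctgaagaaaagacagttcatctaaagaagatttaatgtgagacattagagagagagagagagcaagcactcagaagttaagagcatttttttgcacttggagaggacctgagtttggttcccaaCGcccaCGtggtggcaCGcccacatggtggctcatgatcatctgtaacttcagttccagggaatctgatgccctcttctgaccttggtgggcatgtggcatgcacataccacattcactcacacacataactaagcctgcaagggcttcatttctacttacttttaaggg
Psme1: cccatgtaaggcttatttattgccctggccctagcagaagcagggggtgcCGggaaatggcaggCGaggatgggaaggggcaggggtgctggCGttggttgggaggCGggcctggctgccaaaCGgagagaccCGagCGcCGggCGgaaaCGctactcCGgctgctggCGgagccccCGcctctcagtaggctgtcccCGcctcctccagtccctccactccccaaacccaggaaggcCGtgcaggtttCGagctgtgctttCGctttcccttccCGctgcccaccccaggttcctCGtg
The Tapbp window holds 11 CpG, the Psmb10 window 3 and the Psme1 window 19, and the median of 32851 such mouse windows is 7. Psmb10 is thus poor in CpG, with only 23.3% of all windows holding fewer, whereas Calr (17), Canx (35) and Pdia3 (38) hold more than the median, as do both windows of Psme2 (12 and 11). Of the 10 genes, 7 had a window in the table used, and Nlrc5, Tap2 and Tapbpl had none.

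Letters bound by factors of this pathway were also searched on both strands of these windows, as a description only. The interferon response letters GAAANNGAA were in the Psme1 window alone among members, and in 8.6% of all. The NF-Y motif CCAAT stood in the windows of Tapbp, Calr, Canx and Pdia3 and in 37.4% of all windows. The letters TGACG, part of the CREB site, were found for Psme2, Canx and Pdia3 (20.8% of all windows), and CCACG, part of the endoplasmic reticulum stress element, for Psmb10, Psme2, Calr and Canx (32.8%). Methylation was not measured in these samples.

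Nlrc5, the transactivator of class I genes, was higher in DAC/TSA cells. Its probe (ILMN_3161790) had log2 signals of 6.87, 6.94 and 6.89 in DAC/TSA cells, against 5.82, 5.90 and 5.70 in control cells. Every DAC/TSA array lay above every control array, with a gap of 0.97 between the nearest arrays of the groups. On the linear scale before normalisation the probe read 118, 122 and 141 intensity units in DAC/TSA cells and 54.0, 55.3 and 49.96 in control cells. Nlrc5 was detected on 3 of 3 DAC/TSA arrays and on 1 of 3 control arrays, so that its control level was close to the detection limit. Its probe was therefore among the deposited log2 values only through DAC/TSA cells. The change was 1.10 ± 0.09 (SE, n = 3 each), or 2.14-fold, with an adjusted p of 5.95e-07 in limma. In a population of cells, a change in RNA per cell and a change in the number of cells that express a gene cannot be told apart.

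Tap2, which encodes a chain of the peptide transporter, also rose. Its log2 signals were 7.46, 7.52 and 7.31 in DAC/TSA cells and 6.73, 6.38 and 6.28 in control cells (probe ILMN_2686721). The probe was detected on all 6 arrays and the groups were 0.58 apart at their nearest arrays. The change was 0.97 ± 0.12 (SE, n = 3 each), or 1.96-fold, with an adjusted p of 1.83e-05. Tap1, the partner chain of the transporter, was not analysed here, nor were the immunoproteasome subunits Psmb8 and Psmb9.

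Tapbp and Tapbpl encode related proteins and moved in opposite directions. Tapasin, the product of Tapbp, bridges the class I molecule and TAP, and TAPBPR, the product of Tapbpl, edits peptides outside the loading complex. The brighter Tapbp probe (ILMN_1226819) had log2 signals of 7.30, 7.38 and 6.97 in DAC/TSA cells and 6.67, 6.90 and 6.81 in control cells. DAC/TSA replicate 3 came within 0.06 of the highest control array. The change of this probe was 0.42 ± 0.12 (SE, n = 3 each), or 1.34-fold, with an adjusted p of 0.00752. The call was kept without DAC/TSA replicate 3, but leaving out any of the remaining 5 arrays ended it, with adjusted p values between 0.0107 and 0.0446. It also ended with arrays scaled to a common median (0.0279) and with neqc, a normalisation that here estimated background from the detection p-values (0.0131).

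The dimmer Tapbp probe (ILMN_3155492), which is annotated to another transcript of the gene, separated the groups more widely. Its log2 signals were 6.82, 6.53 and 6.36 in DAC/TSA cells and 5.93, 5.71 and 5.78 in control cells, where it was detected on 2 of 3 arrays. The change was 0.76 ± 0.12 (SE, n = 3 each), or 1.69-fold, with an adjusted p of 0.000132. Both probes of Tapbp were therefore called higher, with 95% confidence intervals of 0.17 to 0.67 for the brighter and 0.50 to 1.02 for the dimmer.

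Tapbpl fell in DAC/TSA cells. Its log2 signals were 6.22, 6.21 and 6.02 in DAC/TSA cells, against 7.45, 7.54 and 7.55 in control cells (probe ILMN_2974611). The nearest arrays of the groups were 1.23 apart, and the probe was detected on all 6 arrays. The change was -1.36 ± 0.09 (SE, n = 3 each), which is 2.57-fold lower, with an adjusted p of 1.28e-07.

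Neither measured chaperone of the loading complex was called. Calreticulin, a soluble lectin chaperone, had Calr log2 signals of 9.20, 9.26 and 8.76 in DAC/TSA cells and 8.94, 8.65 and 8.53 in control cells. DAC/TSA replicate 3 lay below control replicate 1, so the groups overlapped. The Calr change was 0.37 ± 0.14 (SE, n = 3 each) with an adjusted p of 0.0386, which missed the threshold, and its 95% confidence interval was 0.06 to 0.67. Without DAC/TSA replicate 3 the change was 0.52 and the adjusted p 0.00109, and a fit that blocks on the replicate number gave an adjusted p of 0.00125, both past the threshold.

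Pdia3, whose product ERp57 is a thiol oxidoreductase bound to tapasin, had log2 signals of 12.10, 11.99 and 12.00 in DAC/TSA cells and 12.25, 12.27 and 12.35 in control cells. All DAC/TSA arrays lay below all control arrays by a gap of 0.15. The Pdia3 change was -0.26 ± 0.09 (SE, n = 3 each), with a 95% confidence interval of -0.45 to -0.07, and its adjusted p of 0.0202 missed the threshold, although with the replicate block it was 0.00659.

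Psmb10, the interferon-inducible subunit that takes the place of Psmb7 in the immunoproteasome, was lower by both of its probes. The brighter probe (ILMN_2757870) had log2 signals of 8.68, 8.77 and 8.45 in DAC/TSA cells and 9.96, 9.88 and 9.78 in control cells. The other probe (ILMN_2914843) had 8.67, 8.66 and 8.62 in DAC/TSA cells and 9.84, 9.76 and 9.81 in control cells. No array of 1 group came within 1.01 of the other group on either probe. The changes were -1.24 ± 0.10 and -1.16 ± 0.08 (SE, n = 3 each), which is 2.36-fold and 2.23-fold lower, with adjusted p values of 6.89e-07 and 2.10e-07. Psmb10 thus fell in the same cells in which Nlrc5 and Tap2 rose.

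Psme1 and Psme2 encode the alpha and beta subunits of PA28, an interferon-inducible cap of the proteasome, and neither was called. The brighter Psme1 probe (ILMN_2986309) had log2 signals of 11.23, 11.34 and 11.47 in DAC/TSA cells and 11.06, 11.02 and 11.17 in control cells. The dimmer Psme1 probe (ILMN_2671204) had 10.31, 10.35 and 10.47 in DAC/TSA cells and 10.15, 10.03 and 10.04 in control cells. On both probes every DAC/TSA array lay above every control array, by 0.06 and 0.16. The Psme1 changes were 0.26 ± 0.09 and 0.30 ± 0.09 (SE, n = 3 each) with adjusted p values of 0.0299 and 0.0106, and with the replicate block these were 0.00563 and 0.00276.

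Psme2 had log2 signals of 7.97, 8.04 and 7.53 in DAC/TSA cells and 7.73, 7.88 and 7.61 in control cells. The groups overlapped, and DAC/TSA replicate 3 was the lowest of all 6 arrays. The Psme2 change was 0.10 ± 0.13 (SE, n = 3 each) with an adjusted p of 0.528 and a 95% confidence interval of -0.18 to 0.38. It was 0.26 (adjusted p 0.0424) without DAC/TSA replicate 3 and 0.0066 (adjusted p 0.973) without DAC/TSA replicate 2. The reference lists a near-identical copy, Psme2b, and whether the probe tells them apart was not tested.

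**Figure D2:**
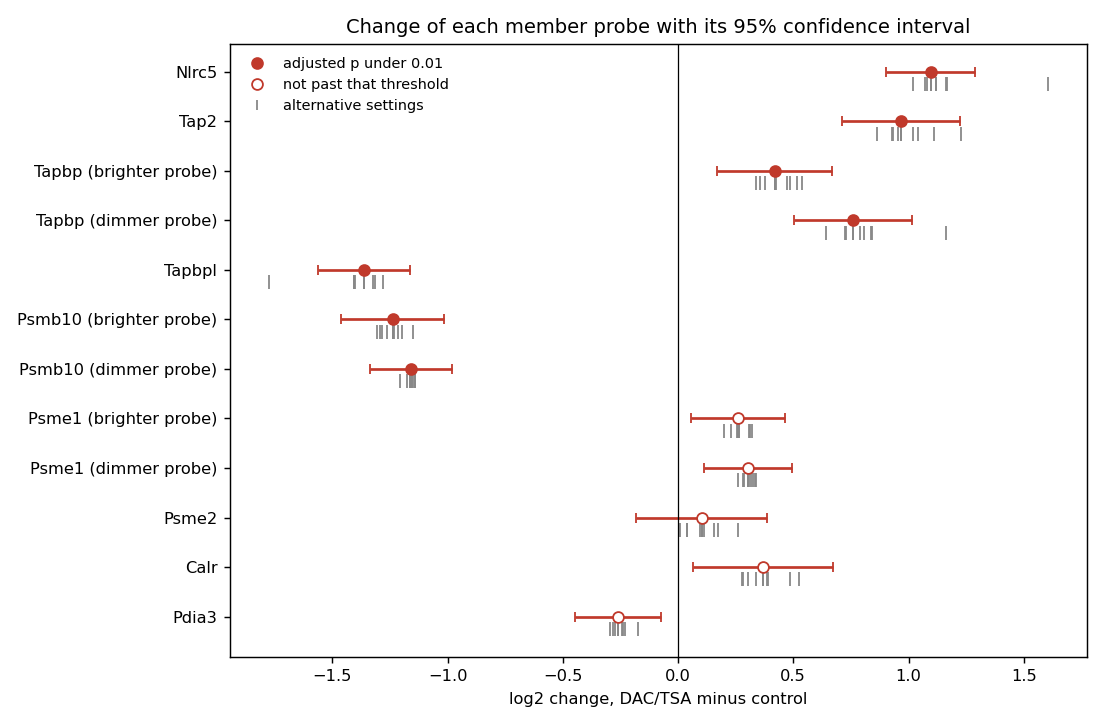
Log2 change, DAC/TSA minus control (x axis), of each probe (rows) with its 95% confidence interval, filled where the adjusted p was under 0.01, and grey ticks for the same change under the alternative settings. Tapbpl (-1.36) and Psmb10 (-1.24 and -1.16) lie to the left of 0, and Nlrc5 (1.10) and Tap2 (0.97) to the right, under each alternative in which they were tested.

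The replicates of each group were ranked over these 12 probes only. The same counts over all probes were not made, and probes of the same gene are not independent. DAC/TSA replicate 3 was the lowest DAC/TSA array on 8 of the 12 probes, and replicate 2 the highest on 6. Control replicate 1 was the highest control array on 6 of the 12. Replicate 3 was, however, the highest DAC/TSA array on both probes of Psme1.

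Proteasome catalytic and activator genes outside the immunoproteasome were not called. Of 6 listed, 5 were measured, with 0 calls by limma and 1 gene, Psmb6, at an unadjusted p under 0.05. Of all genes, 52.8% were called. Psmb7, the constitutive counterpart of Psmb10, changed by -0.02 ± 0.09 (SE, n = 3 each), with a 95% confidence interval of -0.21 to 0.17 that does not meet the interval of either Psmb10 probe. The catalytic subunits Psmb5 and Psmb6 changed by 0.12 ± 0.11 and -0.21 ± 0.09, and the PA28 gamma gene Psme3 by 0.01 ± 0.08. Pomp, the proteasome assembly chaperone, was the single gene measured of 5 other immunoproteasome and TAP genes, and it rose by 0.39 ± 0.09 (adjusted p 0.00194), a call that was lost with median scaling.

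Among genes that trim or destroy cytosolic peptides, 5 of 10 were measured, with 1 higher, 1 lower and 3 not called (median change -0.18). Of all genes, 27.0% were called higher and 25.8% lower. Thop1, a peptidase known to degrade class I ligands, rose by 1.02 ± 0.09, or 2.03-fold, and the insulin-degrading enzyme gene Ide fell by 0.32 ± 0.09. With median scaling 1 of the 5 was called, Thop1, so that the call of Ide was lost. Erap1, the aminopeptidase that trims peptides in the endoplasmic reticulum, was not analysed here.

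The calnexin cycle and oxidative folding genes, which prepare glycoproteins in the endoplasmic reticulum, were mixed. Of 24 listed, 19 were measured, with 8 higher, 3 lower and 8 not called, beside 27.0% of all genes higher and 25.8% lower. Their median change was 0.02. The disulphide isomerase gene Pdia6 rose by 1.15 ± 0.09, the glucosyltransferase relative Uggt2 by 1.02 ± 0.09 and the translocon subunit gene Sec61b by 0.85 ± 0.10. Dimmer probes of Uggt2 gave 0.99, 0.95 and, without a call, 0.26, and that of Sec61b gave 0.95. The dimmer Pdia6 probe was not called (0.15 ± 0.12, adjusted p 0.302 in limma). Prkcsh was counted as higher by its brighter probe (0.42 ± 0.09), but its dimmer probe was lower (-0.86 ± 0.09). Mogs, the glucosidase that starts glycan trimming, fell by 0.69 ± 0.12, and the other 2 lower genes, named after their values were seen, were Sec62 and Txndc5. With arrays scaled to a common median, 3 of the 19 were called, all higher, beside 15.3% of all genes called higher.

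Factors known to act at class I promoters went down as far as they were called. Of 16 listed, 9 were measured, with 6 lower and 3 not called, beside 25.8% of all genes called lower. Their median change was -0.57, and none of the 9 had a change above 0. Irf1, an interferon-induced activator, fell by 1.09 ± 0.09, which is 2.12-fold lower (adjusted p 6.24e-07). Rfxap, a subunit of the RFX complex with which NLRC5 works, fell by 0.85 ± 0.11, the NF-Y subunit Nfyb by 0.93 ± 0.11 and the NF-κB subunit Rela by 0.69 ± 0.10. Another RFX subunit, Rfxank, changed by -0.14 ± 0.10 (adjusted p 0.276) and was detected on none of the DAC/TSA arrays and on 2 of 3 control arrays. Rfx5 and Ciita were not analysed here. With median scaling, 2 of the 9 were called lower, beside 9.33% of all genes, with a median of -0.49.

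The molecules that receive the peptides were mostly called higher. Of 19 listed class I heavy chain and light chain genes, 10 were measured, with 8 higher and 2 not called, beside 27.0% of all genes called higher. Their median change was 0.79. B2m, the light chain, rose by 0.52 ± 0.10, H2-K1 by 0.70 ± 0.14 and H2-D1 by 1.73 ± 0.14. The dimmer H2-K1 probe was not called (0.23 ± 0.11, adjusted p 0.0964 in limma). It was detected on 2 of 3 DAC/TSA arrays and 1 of 3 control arrays. The other probes of B2m (0.59 ± 0.09) and H2-D1 were called higher. Those of H2-D1 gave 1.93 ± 0.11 and, for a probe undetected in control cells, at least 1.42-fold. H2-T23 and H2-Q5, genes of the T and Q regions, rose by 1.90 ± 0.12 and 1.83 ± 0.10, and H2-M3, which presents formylated peptides, was 2.00-fold higher. Heavy chain genes are close in sequence, and whether their probes tell them apart was not tested. With median scaling 5 of the 10 were called higher, beside 15.3% of all genes.

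**Figure D3:**
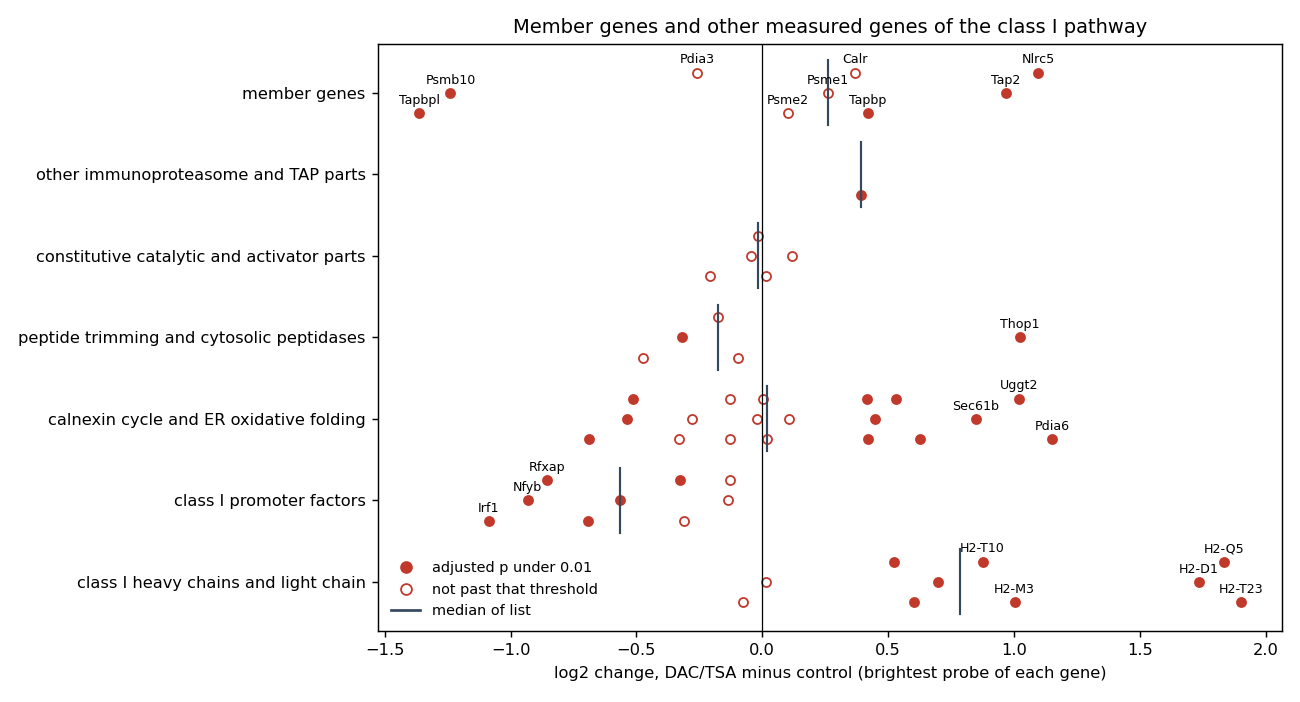
Log2 change, DAC/TSA minus control (x axis), of each measured gene of the class I pathway by list (rows), filled where the adjusted p was under 0.01, with a bar at the median of each list and fitted values throughout (H2-T10 was undetected on all control arrays, Sec62 and Rfxank on all DAC/TSA arrays). The promoter factors lie to the left of 0 (median -0.57), the class I chains mostly to the right (median 0.79) and the 9 peptide supply and loading genes on both sides.

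The genes next to each member on the chromosome were also examined, an addition made after the data had been seen. The nearest 2 measured genes on each side were taken from the gene order of GRCm38.p6. Around the 9 genes, 14 of 33 different neighbours were called (42.4%), beside the 52.8% of all genes.

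Tap2, on chromosome 17 among the class II genes, had 4 higher genes as its 4 nearest measured genes, which were not close to it. H2-DMb1 lay 44.2 kb from it, H2-DMb2 52.9 kb, H2-Eb1 89.5 kb and Notch4 348 kb. H2-DMb2 and H2-DMb1 encode chains of the class II peptide exchanger, and H2-Eb1 is a class II chain gene. None of the 4 was detected on any control array, and all were detected on 3 of 3 DAC/TSA arrays. Against the lowest detected signal of the control arrays, H2-DMb2 was at least 2.48-fold higher, H2-DMb1 at least 2.29-fold, H2-Eb1 at least 1.03-fold and Notch4 at least 1.36-fold. As the control level of each is only bounded, these neighbours could be measured here because they were detected in DAC/TSA cells.

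Tapbp, also on chromosome 17, stood between Zbtb22 and Daxx on one side and Rgl2 and Wdr46 on the other, and 0 of these 4 was called in limma, with 1 at an unadjusted p under 0.05 (Rgl2). Tapbpl, on chromosome 6, likewise had 0 of 4 neighbours called, with 1 at an unadjusted p under 0.05, Ltbr, which had -0.30 ± 0.13 (adjusted p 0.0537). Psmb10, on chromosome 8, had 1 neighbour called, the kinase gene Pskh1, which was higher by 0.42 ± 0.10, against its own fall. At an unadjusted p under 0.05 in limma, 2 of its 4 neighbours were higher (Pskh1 and Slc12a4) and 2 lower. The lower genes, Ctrl (-0.27 ± 0.10) and Lcat (-0.27 ± 0.10), were its nearest measured gene on each side. Nlrc5, also on chromosome 8, had 2 lower neighbours, Herpud1 (-0.48 ± 0.08) and Psme3ip1 (-0.57 ± 0.12), against its own rise.

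Among members without a call, Psme1 and Psme2 lie on chromosome 14 on either side of Emc9, a gene of the membrane insertion complex. Emc9 was called higher (adjusted p 0.000629), by at least 1.39-fold, as no control array detected it. Calr, on chromosome 8, had 2 lower neighbours (Nfix and Farsa) and 1 higher (Gcdh), and Pdia3, on chromosome 2, had 3 higher (Ckmt1, Ell3 and Serf2). Ckmt1 and Ell3 were detected on 0 of 3 control arrays, so that they too could be measured only through DAC/TSA cells, and were at least 1.01-fold and 1.09-fold higher.

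**Figure D4:**
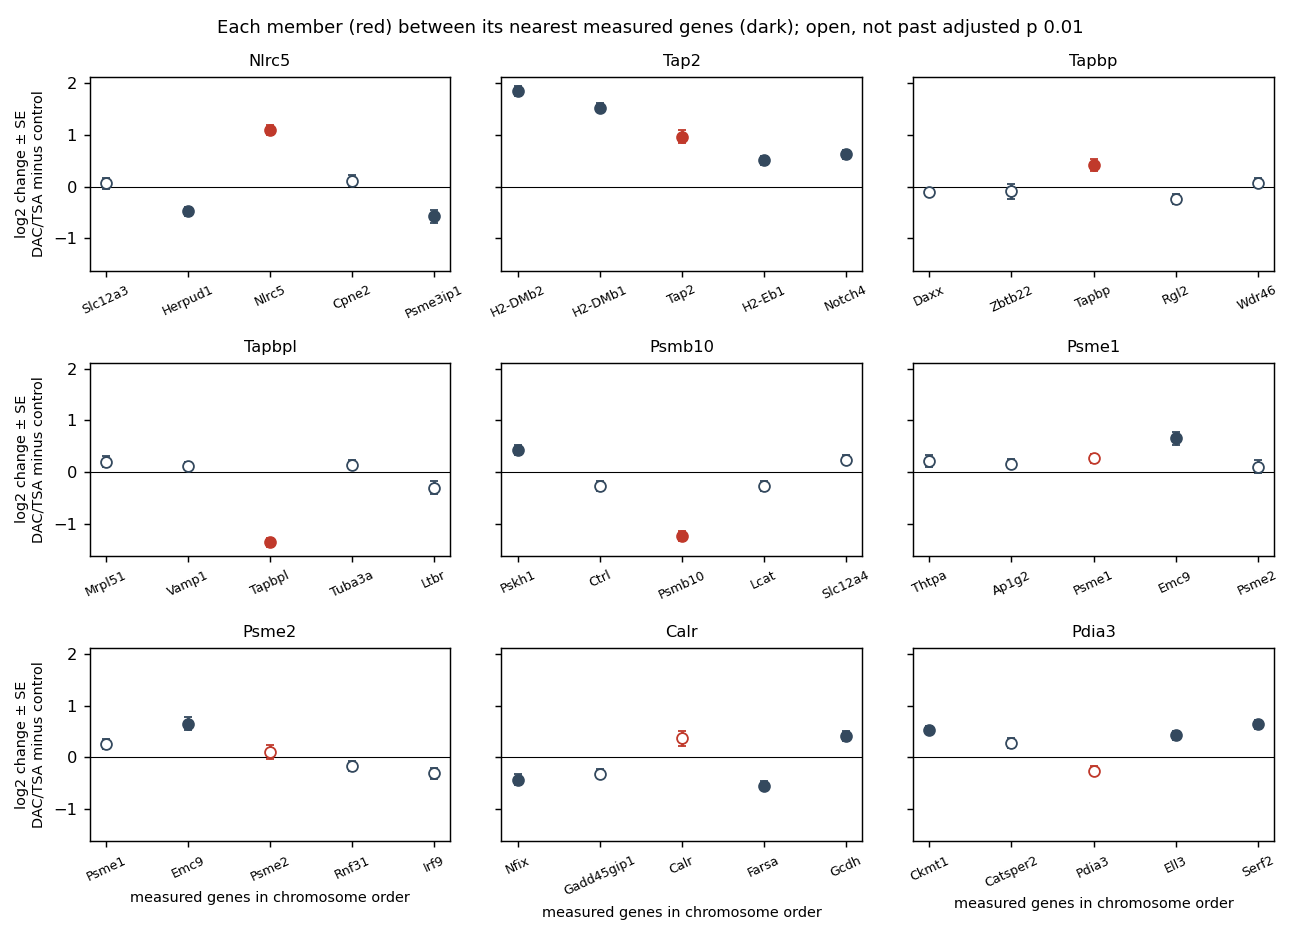
Log2 change ± SE, DAC/TSA minus control (y axis), of each member (red) between its nearest 2 measured genes on each side (dark) in chromosome order (x axis), filled where the adjusted p was under 0.01. The 4 neighbours of Tap2 are all above 0 (fitted values, since none was detected in control cells), and none of the neighbours of Tapbpl and Psmb10 was called lower. Ctrl and Lcat, on either side of Psmb10, lie below 0 without a call (-0.27 each).

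Markers of other cell types were read in the same arrays, since leukocytes express several of the 9 genes strongly. Of 20 leukocyte markers, 7 were measured (Cd14, Cd52, Cd79b, Coro1a, Laptm5, Lyz1 and Lyz2), and the pan-leukocyte gene Ptprc was not analysed here. Cd52, Laptm5, Lyz1 and Lyz2 were called higher and Cd79b lower, beside 27.0% and 25.8% of all genes. The summed signal of the 7 was 718 to 760 intensity units in DAC/TSA cells and 513 to 529 in control cells. The 4 higher genes were undetected on all control arrays, Cd79b on all DAC/TSA arrays. Each could thus be measured only through the group in which it was higher. Cd52 was at least 1.56-fold higher, Laptm5 1.21-fold, Lyz1 3.18-fold and Lyz2 1.23-fold, and Cd79b was at least 1.095-fold lower. The summed signal of 6 mesenchymal markers (of 12 listed) was 7065 to 7089 in DAC/TSA cells and 4376 to 4867 in control cells, that of 5 epithelial markers (of 11) 2570 to 3204 in DAC/TSA cells and 2330 to 3051 in control cells, and that of 3 endothelial markers (of 6) 1710 to 1956 in DAC/TSA cells and 397 to 442 in control cells. The lists did not move as a whole, with Egfl7 higher (3.24 ± 0.13), Esam lower (-0.68 ± 0.09) and Kdr not called among the endothelial markers. Calls of these lists also stand beside 27.0% of all genes called higher and 25.8% lower. Fn1 was higher (2.26 ± 0.09) and Pdgfra lower (-0.45 ± 0.11) among the 6 mesenchymal markers, and Krt14 and Cldn4 were higher among the 5 epithelial markers, with 3 not called. Cldn4, at least 1.42-fold higher, was undetected on all control arrays and could be measured only through DAC/TSA cells. The labels name only cultured tumour cells, and the part of other cells in the changes of the members was not tested.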

How the data were processed

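Total RNA of 3 DAC/TSA and 3 control cultures of RVP3 cells was measured on bead arrays, with groups and replicate numbers as labelled. The authors deposited probe intensities on a linear scale, extracted with BeadStudio, with a detection p-value per probe and array (45281 probes), and log2 values of 15131 probes after quantile normalisation. Per the study's methods they tested with limma. Quantile normalisation of the log2 signals was repeated here and matched the deposited log2 values to within 4.97e-14. Probes with a detection p-value above 0.01 on all 6 arrays were removed, which left 16760.

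DAC/TSA was compared with control, two-sided, with R 4.3.3 and the linear model and moderated test of limma 3.58.1 (lmFit, eBayes), with Benjamini-Hochberg adjustment over the 16760 probes and a threshold of 0.01. The platform annotation of the deposited log2 values gave a single gene symbol to 13126 of these probes, updated to GRCm38.p6 names, and a gene was represented by its brightest probe (8734 genes). Every probe with deposited log2 values was detected on at least 2 of 3 arrays of a group. Where no array of a group detected a gene, its fold is a bound, given as "at least", from the higher, per array, of the lowest detected signal and its own. Bead arrays have no read depth, and precision is limited by having only 3 arrays a group. Python 3.11.15, pandas 2.3.3 and matplotlib 3.10.9 were used for promoters and figures.

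The members, lists and markers were chosen with earlier results of these data known. Named genes were all 10 members, certain pathway genes by name whatever their value, and up to 4 genes with the largest change past the threshold of each other list. Deviations of same-numbered arrays from their group means correlated at 0.34, 0.24 and 0.65 for replicates 1, 2 and 3, so a fit with the replicate number as a block was run. This pairing is read from the data, as the labels name no shared day or batch, and DAC/TSA replicate 1 correlated with control replicate 2 at 0.37. Alternatives were median scaling, neqc, the deposited log2 table, other detection filters, trended and robust eBayes, the block, a threshold of 0.05 and leaving out each array. A comparison of member proteins was planned and not run, since no protein sequence was used here.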

Additional observations from a re-analysis of the deposited data

How the results depend on the processing

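No change of a member probe reversed its sign under any alternative in which it was tested (13 for most probes, 12 for Nlrc5 and the dimmer Tapbp probe, which could not be tested among probes detected on all 6 arrays). Nlrc5 kept its call in 12 of 12, with changes of 1.02 to 1.61, Tap2 in 13 of 13 (0.86 to 1.23), Tapbpl in 13 of 13 (-1.78 to -1.28) and both probes of Psmb10 in 13 of 13 (-1.31 to -1.15 and -1.21 to -1.14). The brighter Tapbp probe lost its call in 7 of 13, among them neqc (adjusted p 0.0131), while the dimmer kept it in 12 of 12. With median scaling the counts over all probes were 2032 higher and 1286 lower, against 3748 and 3926 with quantile normalisation, and 2 members were called higher (15.3% of all genes) and 2 lower (9.33%). With the replicate block, 5 members were called higher (32.5% of all genes) and 3 lower (32.8%), since Psme1, Calr and Pdia3 then passed, and the block changed no other call of a member. The block also gave 5 lower calnexin cycle genes against 3, 2 lower peptidase genes against 1, 7 lower promoter factors against 6, 2 lower leukocyte markers against 1, 3 higher and 2 lower mesenchymal markers against 1 and 1, and 1 lower epithelial marker against 0. At an adjusted p of 0.05, 5 were also called higher (32.4% of all genes) and 3 lower (32.6%). The dimmer Psme1 probe passed in 5 of 13 alternatives (adjusted p 0.00276 to 0.188 over all) and Pdia3 in 2 of 13 (0.00659 to 0.470), while Psme2 passed in 0 of 13 (0.0424 to 0.973). The causes of these differences were not tested. Signal near background limits Nlrc5 and the dimmer Tapbp probe in control cells.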
